A study of Mus musculus with 16 samples.

Results

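The complement genes C2, C3, C4b, Hc, C6, C8a, C8b, C9 and Cfb, which hepatocytes express for secretion into blood, were compared between livers with and without the hepatic glucagon receptor. They were chosen by name, and all 9 were found among the 41079 genes of the deposited table. All 9 also passed the filter on low counts that left 16742 genes for testing.

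Complement is a set of blood proteins that circulate as inactive precursors and cut one another in sequence once a microbe, an antibody or a damaged surface starts the cascade. The classical, lectin and alternative pathways differ in what starts them and meet at the cleavage of C3. Its larger fragment coats the target, and the smaller fragments of C3 and C5 attract and activate leukocytes. Cleaved C5 then gathers C6, C7, C8 and C9 into the membrane attack complex, a ring that opens a pore in the target membrane. The liver is the main source of most of these proteins in blood, and several of them belong to the acute-phase proteins that hepatocytes make in inflammation.

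The study examined aged mice that lack the glucagon receptor in the liver, a receptor through which glucagon raises cyclic AMP in hepatocytes. LKO mice carried a Gcgr gene with LoxP sites around exons 6 to 12 together with a Cre transgene driven by the Albumin promoter, which acts in hepatocytes from development onward. CRE- controls carried the floxed Gcgr gene without Cre, so a Cre transgene without floxed Gcgr was not among the groups. Livers of 4 male CRE-, 4 male LKO, 4 female CRE- and 4 female LKO mice on the C57BL/6J background, aged 20 to 22 months, were each sequenced as 1 library. Levels are given as CPM, the counts of a gene relative to the TMM-normalized size of its library, and all values in a list follow replicates 1 to 4. The p values given below set differences between groups against the spread between mice of a group. In the fit over all groups that spread was shared by the groups and moderated across genes. Library totals lay between 33268424 and 56488920 counts.

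Some libraries stood apart from their group before any comparison. In male LKO replicate 1, C6, C8a and C8b were near female levels, although Ddx3y, a gene of the Y chromosome, was at 58.0 CPM there and Xist, which silences the X chromosome of females, was at 0.0514 CPM. Every library had the Xist and Ddx3y levels of its labelled sex. Of the 153 other genes called between female and male controls, 65 lay nearer to the female control mean in male LKO replicate 1, against 21, 23 and 16 in male LKO replicates 2 to 4. In female LKO replicates 1 to 4, 49, 44, 44 and 44 of these genes lay nearer to the male control mean. Female CRE- replicate 1 held the highest value of the 4 female controls for every gene of the 9 but C6. Male CRE- replicate 3 gave 25.3% of its counts to the 10 most abundant genes, the highest share of the 16 libraries, and held the highest value of the male controls for every gene of the 9 but C2. Values without these libraries are given below for several genes that they moved.

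Gcgr, the targeted gene, was at 190.4, 193, 127 and 189.6 CPM in male CRE- livers and at 117, 136, 129.9 and 160.3 CPM in male LKO livers. Male CRE- replicate 3 lay within the LKO range, and the other 3 male controls lay above all 4 male LKO livers. In females Gcgr was at 162, 208, 201 and 180.0 CPM in CRE- livers and at 48.8, 132, 119 and 93.6 CPM in LKO livers. All 4 female LKO livers were below all 4 female controls. The log2 fold change was -0.37 (SE 0.24, edgeR adjusted p = 0.671) in males and -0.93 (SE 0.25, edgeR adjusted p = 0.0443) in females. The female call was lost in 13 of the 16 fits that left out 1 library, and kept without male CRE- replicate 2 or 3 or female LKO replicate 2; its adjusted p over all alternatives was 0.00859 to 0.136. Exons 6 to 12 hold 36.4% of the 2152 bases of the main Gcgr transcript of 14 exons, while the count covers the whole gene, so it checks the genotype labels only in part and in males does not separate them.

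Markers of hepatocytes were examined beside the 9 complement genes, although whole liver does not tell which cells hold the transcripts. Of the hepatocyte markers Alb, Ttr, Apoa1, Apob, Serpina1a and Trf, none was at 0 in any library, and the 6 together summed to 80649, 108522, 133475 and 108696 CPM in male CRE-, 74833, 83214, 101420.2 and 84084 CPM in male LKO, 134398, 127284, 132493 and 156752 CPM in female CRE- and 79486, 111991, 101288 and 116329 CPM in female LKO livers. Alb, serum albumin, was the most abundant. The 9 complement genes together summed to 13129, 13845, 19301 and 12246 CPM in male CRE- and 9444, 9474, 11413 and 9964 CPM in male LKO livers. Every male LKO sum was below every male CRE- sum. In females the sums were 22320.4, 13255, 14109 and 14534 CPM in CRE- and 25633, 16863, 14883 and 21659 CPM in LKO livers, and these overlapped. C3 makes up most of each sum. Of the 9 genes, only C4b and C9 separated the male groups on their own. The separation of male sums was not particular to the 9. Acute-phase genes, examined below, summed to 12334 to 17761 CPM in male CRE- and 9012 to 9916 CPM in male LKO livers.

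Between genes, levels were compared per kilobase of counted exon length. In male controls the mean level in CPM per kilobase (± SD, n = 4) was 1661 ± 481 for C3, 562 ± 74.7 for Cfb and 394 ± 29.3 for C4b. C9, C8a and Hc followed at 165 ± 19.1, 161 ± 40.5 and 151 ± 35.0 CPM per kilobase, closer to one another than their SDs. C8b was at 76.6 ± 11.5, C6 at 45.4 ± 21.9 and C2 at 44.8 ± 5.70 CPM per kilobase, the latter 2 within 1 SD of each other. In female controls C3 at 2116 ± 543, Cfb at 669 ± 79.8 and C4b at 362 ± 128 CPM per kilobase kept the first 3 places. Hc at 117 ± 45.3 and C9 at 104 ± 33.7 CPM per kilobase came next and overlapped within their SDs. C2 was at 40.5 ± 6.66, C8a at 34.6 ± 38.4, C8b at 21.3 ± 14.9 and C6 at 7.07 ± 4.91 CPM per kilobase. In females C2, C8b and C6 were within 1 SD of C8a, and C6 was within 1 SD of C8b. Their order is not resolved by these means. The C8a mean rests in large part on female CRE- replicate 1, at 341 CPM where the next highest female control was at 81.3 CPM.

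**Figure D1:**
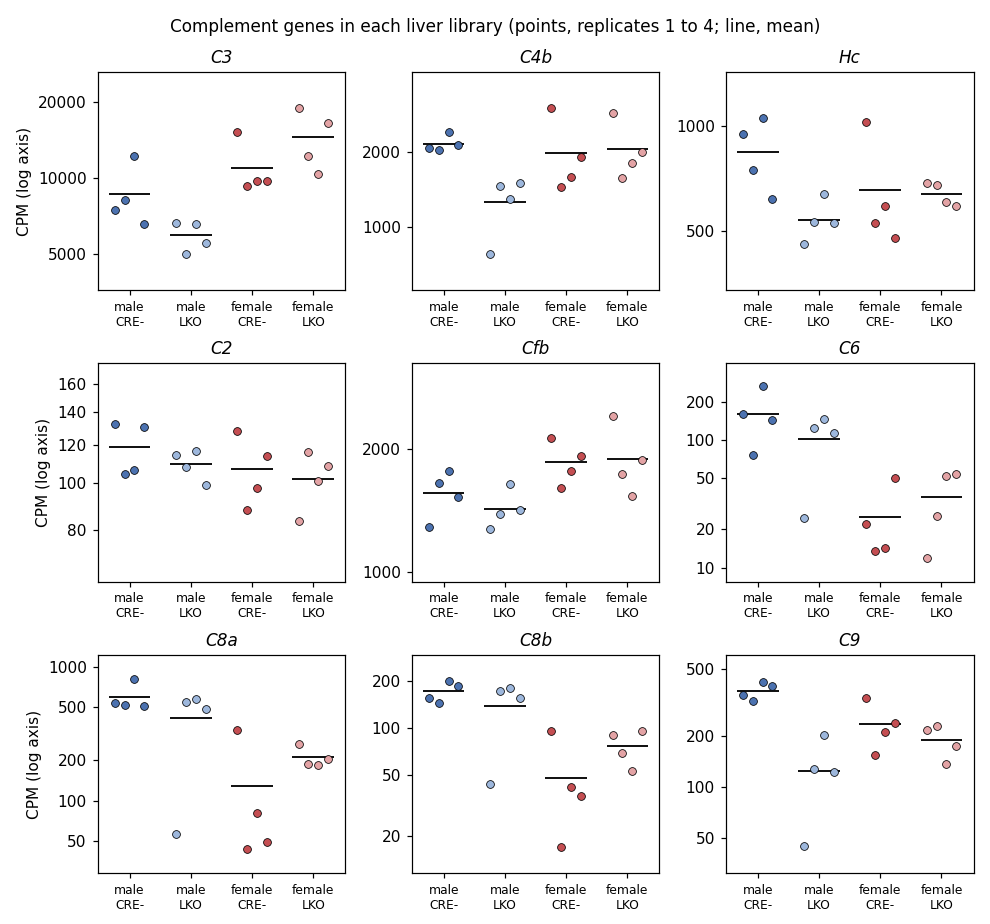
CPM of the 9 complement genes on log axes, with 1 point per liver (replicates 1 to 4 from left to right in each group) and a line at the mean of each group of 4. C9 in the 4 male LKO livers lies below all 4 male controls, and C6, C8a and C8b in the female controls lie below the male controls.

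C3 is the protein on which all 3 activation pathways converge. It was at 7485, 8240.3, 12277 and 6606 CPM in male CRE- livers and at 6652, 5020.0, 6613 and 5545 CPM in male LKO livers. The male groups overlapped only through male CRE- replicate 4 and male LKO replicates 1 and 3. In females C3 was at 15249, 9355, 9725 and 9747 CPM in CRE- livers and at 19005, 12244, 10414 and 16560.2 CPM in LKO livers. Female CRE- replicate 1 stood above female LKO replicates 2 and 3, so these groups overlapped as well. The log2 fold change was -0.54 (95% interval -1.09 to 0.0085, edgeR adjusted p = 0.538) in males and 0.40 (95% interval -0.14 to 0.95, edgeR adjusted p = 0.402) in females. Neither passed the threshold of 0.05. The male value without male CRE- replicate 3 was -0.34. With 1 library left out the female value was 0.26 to 0.60, lowest without female LKO replicate 1 and highest without female CRE- replicate 1, and with limma-voom it was 0.23.

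C4b encodes complement C4, whose larger fragment forms the C3-cleaving enzyme of the classical and lectin pathways together with C2. It was at 2077, 2037, 2394 and 2129 CPM in male CRE- livers and at 782, 1459, 1297 and 1504 CPM in male LKO livers. The 4 male LKO values lay below the 4 controls, with replicate 1 the lowest. Female C4b was at 2999, 1453, 1587 and 1908 CPM in CRE- livers and at 2865, 1576, 1807 and 1993 CPM in LKO livers, which overlapped, and replicate 1 was the highest of each female group. On the log2 scale the LKO effect on C4b was -0.78 (95% interval -1.34 to -0.21, edgeR adjusted p = 0.315) in males and 0.052 (95% interval -0.51 to 0.61, edgeR adjusted p = 0.939) in females. Without male LKO replicate 1 the male value was -0.62. Without female CRE- replicate 1 the female value was 0.32, and with 1 library left out it was -0.13 to 0.32. C4b has a close copy, C4a, and 8.10% of the 150-base stretches of C4b exons occur unchanged in C4a. Reads that align equally well to both were not counted, so the values of either gene may miss part of its transcripts.

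C4a was at 51.1, 41.2, 71.0 and 31.7 CPM in male CRE- and 6.64, 18.3, 13.1 and 24.6 CPM in male LKO livers. All 4 male LKO livers were below all 4 controls. The female values were 31.3, 18.9, 18.4 and 30.9 CPM in CRE- and 15.03, 12.99, 25.2 and 14.2 CPM in LKO livers, with overlap. Averaged over the sexes, C4a fell by 1.10 on the log2 scale (SE 0.25, edgeR adjusted p = 0.0239), and in males alone its log2 fold change of -1.64 had an edgeR adjusted p of 0.0563. The averaged call was lost without male LKO replicate 3 (adjusted p = 0.0514), without female CRE- replicate 4 (adjusted p = 0.0536), with limma-voom (adjusted p = 0.0619) and at the threshold of 0.01. The male value was called without male LKO replicate 4 (edgeR adjusted p = 0.0465) or female LKO replicate 3 (edgeR adjusted p = 0.0446). Its adjusted p over all alternatives was 0.00133 to 0.175.

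Hc encodes C5, whose cleavage releases the leukocyte attractant C5a and starts the pore. It was at 947, 748, 1052 and 617 CPM in male CRE- livers and at 459, 529.6, 635 and 527 CPM in male LKO livers. Male CRE- replicate 4 lay below male LKO replicate 3, and the remaining male controls were above every male LKO liver. In females Hc was at 1026, 525, 588 and 476 CPM in CRE- and 684, 677, 603 and 588 CPM in LKO livers. Female CRE- replicate 1 was the highest of the 8. Female CRE- replicate 3 and female LKO replicate 4 were level, and the other 2 female controls lay below all 4 LKO livers. For Hc this gave a log2 fold change of -0.65 (95% interval -1.15 to -0.14, edgeR adjusted p = 0.356) in males and -0.035 (95% interval -0.54 to 0.47, edgeR adjusted p = 0.957) in females. Without male CRE- replicate 3 the male value was -0.54, and without female CRE- replicate 1 the female value turned to 0.27. Exons of the antisense genes Gm13449 and Gm39794 overlap 299 and 28 bases of Hc exons, and these genes stayed at or below 2.58 and 3.55 CPM in every library.

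C2 and Cfb encode the related serine proteases of the 2 kinds of C3-cleaving enzyme, C2 in the classical and lectin pathways and factor B in the alternative pathway. C2 was at 133, 104, 107 and 130.3 CPM in male CRE- and 114, 108, 117 and 99.3 CPM in male LKO livers. In females it was at 128, 88.2, 97.8 and 114 CPM in CRE- and 83.5, 116, 101 and 108 CPM in LKO livers. The 4 groups overlapped, and C2 differed by at most 1.45-fold between the livers of a group. The log2 fold change of C2 was -0.11 (95% interval -0.45 to 0.22) in males and -0.066 (95% interval -0.40 to 0.27) in females, with edgeR adjusted p of 0.852 and 0.862.

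Cfb was at 1282, 1647, 1767 and 1527 CPM in male CRE- and 1269, 1385, 1639.6 and 1413 CPM in male LKO livers. In females it was at 2123, 1605, 1762 and 1915 CPM in CRE- and 2412, 1738, 1529 and 1881 CPM in LKO livers. LKO and CRE- values overlapped in both sexes. Its log2 fold change was -0.12 (95% interval -0.52 to 0.27) in males and 0.030 (95% interval -0.36 to 0.42) in females, with edgeR adjusted p of 0.861 and 0.953. For C2 and Cfb alike, changes past 1.5-fold in either direction lie outside these intervals. With 1 library left out the male value was -0.18 to -0.063 for C2 and -0.21 to -0.072 for Cfb.

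C9 is the subunit that closes the membrane attack complex, many copies of which line the pore. It was at 353, 324, 419 and 399 CPM in male CRE- livers and at 44.8, 127, 204 and 122 CPM in male LKO livers. All 4 male LKO livers were below all 4 male controls, and replicate 1 was the lowest. In females C9 was at 338, 155, 212 and 239 CPM in CRE- livers and at 218, 230.4, 138 and 175 CPM in LKO livers, and the groups overlapped. Averaged over the sexes, C9 fell by 0.95 on the log2 scale (SE 0.24, edgeR adjusted p = 0.0417), to a level 1.93-fold lower in LKO livers. In males alone the value was -1.59 (SE 0.34, edgeR adjusted p = 0.0556), 3.003-fold lower and short of a call at 0.05. The male estimate without male LKO replicate 1 was -1.32 (adjusted p = 0.0729), without male CRE- replicate 3 was -1.54 (adjusted p = 0.132) and without male LKO replicate 3 was -1.93 (adjusted p = 0.0315), in a range of adjusted p of 0.000927 to 0.154 over the alternatives. In females the log2 fold change was -0.31 (95% interval -1.02 to 0.40, edgeR adjusted p = 0.65), and -0.088 without female CRE- replicate 1. For a gene taken alone, whole tissue does not tell fewer hepatocytes from less RNA per hepatocyte. Beside the male C9 value of -1.59, those of the other 8 genes lay between -0.78 for C4b and -0.11 for C2, and the median of the 6 hepatocyte markers was -0.17, in a range of -0.66 to 0.14. The number of hepatocytes was not tested.

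The averaged call of C9 depended on single libraries. It held without male LKO replicate 1 or 3, female CRE- replicate 2 or female LKO replicate 2, and was lost without any of the other 12 libraries. A factor for the replicate number ended it too (adjusted p = 0.0621), as did the threshold of 0.01. The log2 fold change stayed within -1.12 to -0.82 in the 16 fits without 1 library. Adjusted p over all alternatives was 0.0045 to 0.088.

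C6, C8a and C8b encode proteins of the same complex that precede C9. C6 binds the fragment C5b, and C8 is built of an alpha chain from C8a, a beta chain from C8b and a gamma chain from C8g. C6 was at 159, 76.5, 264 and 143 CPM in male CRE- livers and at 24.3, 125, 146 and 113 CPM in male LKO livers. Male LKO replicate 1 was at least 4-fold below the other 3, which lay inside the range of the male controls. In females C6 was at 21.8, 13.6, 14.2 and 50.4 CPM in CRE- and 11.8, 25.2, 52.3 and 53.8 CPM in LKO livers, with overlap, and the lowest of the 8 was an LKO liver, replicate 1. C6 had a log2 fold change of -0.65 (95% interval -1.84 to 0.54) in males and 0.52 (95% interval -0.68 to 1.72) in females, with edgeR adjusted p of 0.752 and 0.652. Leaving out male CRE- replicate 3 gave -0.32 in males, leaving out male LKO replicate 1 gave -0.34, in a range of -0.88 to -0.32 over the 16 fits that left out 1 library. The female range was 0.27 to 1.14, lowest without female LKO replicate 4 and highest without female CRE- replicate 4. With limma-voom the female value was 1.24, and adjusted p was 0.0839 to 0.858 over all alternatives.

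C8a was at 537, 523, 823 and 509.6 CPM in male CRE- livers and at 56.3, 546, 581 and 485 CPM in male LKO livers. Male LKO replicate 1 was 10.3-fold below the highest liver of its group, and replicates 2 to 4 overlapped the controls. Female C8a was at 341, 43.0, 81.3 and 48.5 CPM in CRE- livers and at 264, 188, 186 and 205 CPM in LKO livers. Female CRE- replicate 1 was above all 4 female LKO livers, and the other 3 female controls were below all 4. LKO against CRE-, C8a gave -0.52 (95% interval -1.83 to 0.79, edgeR adjusted p = 0.822) in males and 0.71 (95% interval -0.60 to 2.03, edgeR adjusted p = 0.558) in females. The male value without male LKO replicate 1 was -0.17, while leaving out male CRE- replicate 3 gave -0.34. Without female CRE- replicate 1 the female value was 1.87 (adjusted p = 0.0707, in a range of 0.0707 to 0.804 over the alternatives), and without female CRE- replicate 2 it was 0.43, the lowest of the 16 fits.

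C8b showed the same libraries apart. It was at 155, 145, 200.4 and 185 CPM in male CRE- livers and at 43.4, 173, 180.2 and 155 CPM in male LKO livers, with male LKO replicate 1 below the rest. Female C8b was at 95.1, 17.1, 41.8 and 36.5 CPM in CRE- livers and at 89.6, 68.5, 53.0 and 94.9 CPM in LKO livers, where female CRE- replicate 1 was the highest of the 8. The other 3 female controls were below all 4 female LKO livers. C8b gave -0.32 (95% interval -1.24 to 0.61, edgeR adjusted p = 0.849) in males and 0.68 (95% interval -0.24 to 1.61, edgeR adjusted p = 0.401) in females. It moved to -0.036 in males without male LKO replicate 1 and to 1.26 in females without female CRE- replicate 1 (adjusted p = 0.0971, in a range of 0.0971 to 0.695 over the alternatives). The lowest female value with 1 library left out was 0.40, without female CRE- replicate 2.

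**Figure D2:**
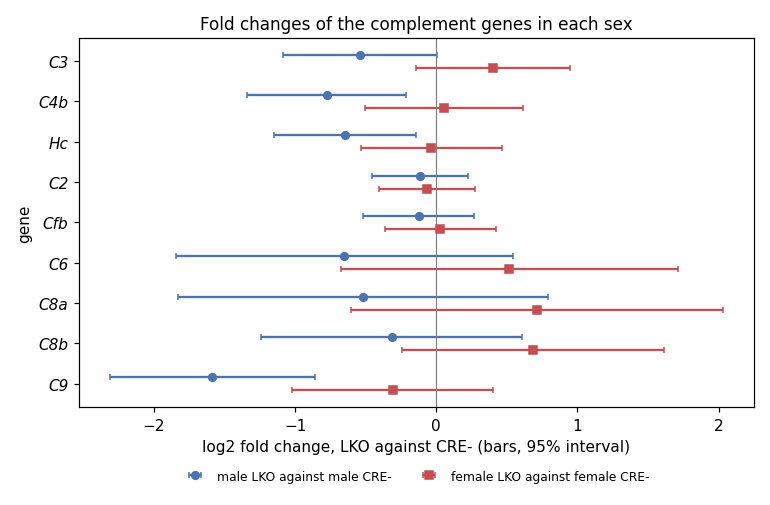
Log2 fold change of LKO against CRE- livers for the 9 complement genes, with males as circles, females as squares and bars for the 95% interval of the edgeR fit over 4 livers a group. The male value of C9 is -1.59, and all 9 male values are below 0, while 6 of 9 female values are above 0.

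Counted over the 9 genes, edgeR called 0 in the male comparison, where 0.454% of all genes tested were called, and 0 in the female comparison, where 4.24% were called. At an unadjusted p under 0.05 there were 3 of 9 in males, C4b, Hc and C9, all lower in LKO livers, against 9.53% of all genes in either direction, and 3 or 4 of 9 under every alternative. In females there were 0 of 9 at that threshold, against 21.4% of all genes. This count was 3 of 9 without female CRE- replicate 1 and 2 of 9 with limma-voom, and 0 in the other alternatives. DESeq2 and limma-voom each called 1 of 9 in males, C9, beside 335 and 148 of all genes. In females they called 0 of 9, beside 1795 and 1976 of all genes. DESeq2 gave no p for C8a in any comparison. Male LKO values lay wholly below the controls for 2 of 9, C4b and C9, as for 2.92% of all genes. In females 0 of 9 were free of overlap, against 11.6% of all genes. The median log2 fold change of the 9 was -0.54 in males and 0.052 in females, beside -0.0078 and 0.0354 over all genes tested. Single libraries moved these medians, to -0.34 in males without male CRE- replicate 3 and -0.34 without male LKO replicate 1. In females the median was 0.32 without female CRE- replicate 1, with 8 of 9 above 0, and -0.034 without female CRE- replicate 2, with 4 of 9 above 0.

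The 2 comparisons were then set against each other in the same fit, since the study asks whether loss of the receptor acts differently in females. The difference, female effect minus male effect, was above 0 for all 9 genes, while its median over all genes tested was 0.035. The smallest, that of C2, was 0.047. With 1 library left out the C2 value was -0.15 to 0.036 in females and -0.18 to -0.063 in males, so its sign is not firm. Several of the 9 genes vary together, so their signs are not independent of one another. edgeR called 0 of 9, as it called 0% of all genes, while DESeq2 called 0 of 9 beside 369 of all genes and limma-voom 0 of 9 beside 29. At an unadjusted p under 0.05 there were 3 of 9, against 16% of all genes. This count was 6 of 9 without female CRE- replicate 1 and 4 of 9 with limma-voom. With any other library left out it stayed at 2 to 3 of 9. The 3 were C9 with 1.28 (95% interval 0.27 to 2.29, edgeR adjusted p = 0.24), C3 with 0.94 (95% interval 0.17 to 1.71, edgeR adjusted p = 0.248) and C4b with 0.83 (95% interval 0.036 to 1.62, edgeR adjusted p = 0.301) on the log2 scale. In the average over the sexes 1 of 9 was called, C9, beside 2.86% of all genes.

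The controls of the 2 sexes were also compared, since C6, C8a and C8b separate them. The counts below restate that separation for these 3 genes and are no independent test of it. C6 was at 161 ± 77.6 CPM (SD, n = 4) in male and 25.0 ± 17.4 CPM (SD, n = 4) in female controls, and was 6.43-fold lower in females (log2 fold change -2.69, SE 0.60, edgeR adjusted p = 0.0417). C8a was at 598 ± 150.2 CPM (SD, n = 4) in male and 128 ± 143 CPM (SD, n = 4) in female controls, which missed the threshold at -2.22 on the log2 scale (SE 0.65, edgeR adjusted p = 0.145). C8b was at 172 ± 25.7 CPM (SD, n = 4) in male and 47.6 ± 33.4 CPM (SD, n = 4) in female controls and missed it at -1.85 (SE 0.45, edgeR adjusted p = 0.0671). All 4 female controls lay below all 4 male controls for these 3 of the 9 genes, as for 3.17% of all genes. By the adjusted p, 1 of 9 was called, C6, beside 0.92% of all genes. The other 6 genes overlapped between the control sexes, with log2 fold changes from -0.66 for C9 to 0.35 for C3. Without female CRE- replicate 1 the value of C3 was 0.15, that of Hc moved from -0.36 to -0.66, that of C4b from -0.12 to -0.39 and that of C2 from -0.15 to -0.24. Without male CRE- replicate 3 that of C3 was 0.55.

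These calls moved with single libraries. Without female CRE- replicate 1, C8a at -3.37 (adjusted p = 0.0121) and C8b at -2.43 (adjusted p = 0.0163) were called and C6 at -2.62 (adjusted p = 0.121) was not. Without male LKO replicate 1, which enters through the shared estimate of the spread, C6 and C8b were called. The C6 call was lost in 10 of the 16 fits, which left out male CRE- replicate 1, 3 or 4, male LKO replicate 2, 3 or 4, female CRE- replicate 1, 2 or 3 or female LKO replicate 3, and its log2 fold change was -3.32 to -2.35 in all 16. Over all alternatives the adjusted p was 0.000159 to 0.158 for C6, 0.0121 to 0.38 for C8a and 0.00237 to 0.234 for C8b.

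C8a and C8b varied together over the 16 livers, with a Pearson r of 0.96 of log2 CPM and 0.93 after the mean of each group was taken away. C6 followed C8a with r of 0.73 and C8b with 0.78, which became 0.44 and 0.48 within groups. C9 gave r of 0.49 with C8a and 0.42 with C8b, and 0.86 and 0.88 within groups. C3 and Cfb had r of 0.84, and 0.74 within groups. The livers of a group share genotype and sex, and each r over 16 livers contains the difference between the groups. Male LKO replicate 1 enters each r, and was the lowest of its group for C6, C8a, C8b and C9, and also for C4b, Hc and Cfb. Female CRE- replicate 1, the highest of its group for C8a, C8b, C9, C3 and Cfb, enters each r too. No r was computed without these livers.

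Outside the 9, the gene most like each was the one with the highest Pearson r of log2 CPM over the 16 libraries. For C8a and C8b this was Egfr, the epidermal growth factor receptor, with r of 0.95 and 0.94, and Egfr was again the closest to both within groups. Cyp4a12b, a cytochrome P450, was closest to C6 with r of 0.91, also within groups with 0.84. For C9 it was Sdc4 with 0.84, for C3 Abhd2 with 0.87, for C4b Cyb561 with 0.92, for Hc Garem1 with 0.86, for Cfb St6gal1 with 0.91 and for C2 BC023105 with 0.75. Within groups another gene came first for these 6, Chrm3 for C9 with 0.94, Dusp8 for C3 with 0.90, Hsp90b1 for C4b with 0.90, Fan1 for Hc with 0.88, Cpn2 for Cfb with 0.91 and Pafah1b3 for C2 with 0.89. Each r is the highest among a large number of genes over 16 livers, so it is high by selection, and no background was set beside it. Male LKO replicate 1 and female CRE- replicate 1, which stood apart for C8a and C8b, enter these r. A link to the genes named was not tested.

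Several of the 9 genes are neighbours on GRCm39. C4b (chr17:34947249-34962876), Cfb (chr17:35075350-35081492) and C2 (chr17:35081578-35101076) lie on the minus strand of chromosome 17, and 85 bases separate Cfb from C2. C3 (chr17:57510967-57535136) is on the same chromosome, 22.4 Mb away. C8b (chr4:104623514-104661745) on the plus strand and C8a (chr4:104672876-104733684) on the minus strand end towards each other with 11130 bases between them. C6 (chr15:4756550-4833527) and C9 (chr15:6474827-6528306) are 1.64 Mb apart on the plus strand of chromosome 15, and Hc (chr2:34873341-34958518) is on the minus strand of chromosome 2. The adjacent C8a and C8b had the highest r among the 9 genes, while the adjacent C2 and Cfb had r of -0.32.

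RefSeq promoters were given for C3, Hc, C6, C8a, C8b and C9, 6 of the 9 genes, and none for C2, C4b and Cfb. The 250 bases before the transcript start of the promoter table were searched on both strands for 3 motifs, TGACGTCA, the site of CREB through which cyclic AMP acts, TTCNNNGAA of STAT factors and TTGCNNAA of C/EBP factors. On GRCm39 all 250 bases of the Hc window, 142 of the C6 window and 89 of the C8a window lie inside the gene as annotated for the counts. The CREB letters were in 0 of 6 windows and in 1.55% of 32851 promoters of the table. The C/EBP letters were in 2 of 6, C3 and C9, and in 9.56% of all promoters. The STAT letters were in 1 of 6, C8a, against 7.02% of all promoters. The windows of C9, the gene called between the genotypes, and of C3 are shown because both hold the C/EBP letters, in capitals, with no overlap with another of the motifs. The table's build is GRCm38.p6, and each window matched GRCm39 once on its chromosome, for C9 at chr15:6474577-6474826 on the plus strand and for C3 at chr17:57535137-57535386 on the minus strand, each ending 1 base before the gene.
C9: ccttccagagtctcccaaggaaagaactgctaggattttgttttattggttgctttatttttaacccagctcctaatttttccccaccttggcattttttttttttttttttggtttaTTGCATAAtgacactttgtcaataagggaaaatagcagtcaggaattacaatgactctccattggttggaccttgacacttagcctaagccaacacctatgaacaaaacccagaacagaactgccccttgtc
C3: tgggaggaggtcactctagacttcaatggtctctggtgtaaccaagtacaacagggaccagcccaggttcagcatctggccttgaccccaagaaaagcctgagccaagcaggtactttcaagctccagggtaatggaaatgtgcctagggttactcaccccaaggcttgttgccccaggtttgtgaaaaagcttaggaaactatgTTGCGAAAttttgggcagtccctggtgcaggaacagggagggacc

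The rest of the complement system gave the setting of the 9 genes. Of 12 initiators of the classical and lectin pathways (the C1q, C1r and C1s genes, mannose-binding lectins, ficolin A, collectins and their proteases), edgeR called 0 in males and 0 in females, with medians of 0.017 and -0.12. At an unadjusted p under 0.05 there was 1 of 12 in males, lower, against 9.53% of all genes. In females there were 5 of 12, 4 lower and 1 higher, against 21.4% of all genes. The female values of the 12 ran from -0.87 to 1.17, so their median does not stand for each gene. Of 5 further components (C4a, C7, C8g, Cfd and Cfp), 0 were called in males and 1 in females. C8g, which encodes the third chain of C8, was at 328, 525, 491 and 607 CPM in female CRE- and 75.3, 269.9, 197 and 156 CPM in female LKO livers. All 4 female LKO livers were below all 4 controls, and C8g fell by 1.48 on the log2 scale (SE 0.35, edgeR adjusted p = 0.0297). C8g was at 271, 382, 161 and 338 CPM in male CRE- and 208, 307, 292 and 389 CPM in male LKO livers, which overlapped. The female call was lost without female CRE- replicate 2, 3 or 4 or female LKO replicate 1 or 4, with adjusted p of 0.00122 to 0.0874 over the alternatives. C8g and C8a thus had female values on opposite sides of 0, -1.48 and 0.71.

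Among 7 soluble regulators (Cfi, C4bp, Serping1, Clu, Vtn, Cpn1 and Cpn2), which restrain the cascade or inactivate its fragments, edgeR called 0 in either sex. At an unadjusted p under 0.05 there was 1 in males and 1 in females. Their median log2 fold change was -0.27 in males, with all 7 below 0, and -0.086 in females. Of 4 membrane regulators (Cd46, Cd55, Cd59a and Cr1l), 0 were called in either sex, with 0 and 1 at an unadjusted p under 0.05 and medians of -0.032 and 0.045. Of 8 receptors for complement fragments, 0 were called in males (0 at an unadjusted p under 0.05, median -0.039) and 3 were called higher in females (6 higher at an unadjusted p under 0.05, median 1.57). These were C5ar1, the receptor of C5a, with 1.999 (SE 0.55, edgeR adjusted p = 0.0497), Itgam, a chain of complement receptor CR3, with 2.57 (SE 0.64, edgeR adjusted p = 0.0369), and Cr2, with 2.97 (SE 0.76, edgeR adjusted p = 0.0395). Leaving out 1 library ended the call of C5ar1 in 12, of Itgam in 5 and of Cr2 in 8 of 16 fits, female LKO replicate 1 among them each time. Without that liver C5ar1 was at 1.22 (adjusted p = 0.205), Itgam at 2.002 and Cr2 at 2.38. The Cr2 value rests on few counts, although the female groups did not overlap. Its counts were 10, 8, 6 and 2 in female CRE- and 94, 16, 82 and 12 in female LKO livers. Male controls held 52, 10, 36 and 8 counts of Cr2, partly within the female LKO range. C5ar1 and Itgam overlapped between the female groups. Female LKO replicate 2 had 4.34 CPM of C5ar1, below female CRE- replicate 4 at 4.704 CPM. It had 5.86 CPM of Itgam, below female CRE- replicate 1 at 7.27 CPM.

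Macrophages and neutrophils carry several of these receptors, and their markers were examined. The 7 macrophage markers summed to 616, 463, 502 and 868 CPM in female CRE- and 3459, 783, 1700.0 and 942 CPM in female LKO livers, with Cd5l the most abundant and none at 0. The female groups overlapped. In females 1 of 7, Adgre1, was called higher (log2 fold change 2.15, edgeR adjusted p = 0.0451), and all 7 were higher at an unadjusted p under 0.05. The male sums were 733, 399, 235 and 1074 CPM in CRE- and 936, 544, 620.0 and 550.3 CPM in LKO livers, with 0 of 7 called. Of 5 neutrophil markers 4 were tested, Ly6g being too low, and all 4 were higher in females at an unadjusted p under 0.05. Of these 2 were called, Ngp (4.68, edgeR adjusted p = 0.0483) and Retnlg (2.86, edgeR adjusted p = 0.0331). The neutrophil sums, with S100a9 the most abundant and Ly6g at 0 in 9 of 16 livers, were 27.2, 13.9, 11.8 and 15.7 CPM in female CRE- and 86.1, 30.7, 55.99 and 575 CPM in female LKO livers. In males they were 66.6, 13.8, 7.88 and 154 CPM in CRE- and 17.3, 10.2, 7.70 and 7.19 CPM in LKO livers, with 0 called and all 4 lower at an unadjusted p under 0.05. Leaving out 1 library ended the call of Adgre1 in 10, of Ngp in 12 and of Retnlg in 6 of 16 fits. Without female LKO replicate 1 Adgre1 was at 1.21 with an adjusted p of 0.189 (range 0.00207 to 0.189), and without female LKO replicate 4 Ngp was at 2.79 with 0.147 (range 0.00246 to 0.155) and Retnlg at 2.04 with 0.0833 (range 0.000371 to 0.115). The C3 values of these 2 livers, 19005 and 16560.2 CPM, were the highest of the female LKO group. Female LKO replicate 3, with a macrophage sum of 1700.0 CPM and a neutrophil sum of 55.99 CPM, had the lowest C3 of that group, 10414 CPM. The part of these cells in the complement values was not tested.

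Markers of other cells gave 0 calls between LKO and CRE- livers in either sex, over 4 each for cholangiocytes, endothelium, stellate cells with fibroblasts, B with plasma cells, and T with NK cells. At an unadjusted p under 0.05 the 5 lists together held 1 of 20 in males and 3 of 20 in females. Between the control sexes Krt19, a cholangiocyte keratin, was called higher in females (1.66, edgeR adjusted p = 0.03, lost without any 1 of the 8 control libraries, with adjusted p of 0.000272 to 0.0989 over the alternatives). The 6 hepatocyte markers gave 0 calls in males and 0 in females, with medians of -0.17 and -0.37 and 1 and 1 at an unadjusted p under 0.05.

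Of 12 acute-phase genes, the group to which C3, C4b, C9 and Cfb are often assigned, edgeR called 0 in males and 0 in females. At an unadjusted p under 0.05 there were 2 lower in males, and 5 higher and 1 lower in females. Their medians were -0.57 in males and 0.84 in females. For the 9 complement genes they were -0.54 and 0.052. Saa1, serum amyloid A, was at 621, 43.8, 70.3 and 234 CPM in female CRE- and 143, 105, 77.72 and 2181 CPM in female LKO livers. Replicate 4 was far above the other female LKO livers, and replicate 1 above the other female controls, the livers that also held the second highest and the highest C3 of their groups.

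Of 9 transcription factors and signalling genes known to act on liver complement genes, 1 was called in each sex, Esr1, lower both times. With p under 0.05 before adjustment there were 2 lower in males, and 2 higher and 2 lower in females, where 1 gene, Cebpd, lay wholly above the controls (1.58, edgeR adjusted p = 0.0504). Esr1, the estrogen receptor alpha, was at 26.1, 22.9, 39.4 and 21.4 CPM in male CRE- and 14.2, 11.7, 10.7 and 6.97 CPM in male LKO livers. In females it was at 57.2, 55.2, 40.0 and 44.8 CPM in CRE- and 30.0, 16.8, 16.04 and 16.1 CPM in LKO livers. In each sex all 4 LKO livers were below all 4 controls, and Esr1 fell by 1.33 in males (SE 0.26, edgeR adjusted p = 0.036) and by 1.32 in females (SE 0.26, edgeR adjusted p = 0.0173) on the log2 scale. Of the 16 fits without 1 library, the female Esr1 call was lost in that without female CRE- replicate 2 (adjusted p = 0.0627). Leaving out 1 library ended the male Esr1 call in 7 of 16 fits, with male CRE- replicate 1, 2 or 3, male LKO replicate 2, 3 or 4 or female CRE- replicate 2 left out, and adjusted p over all alternatives of 0.000354 to 0.0967. Stat3, which carries the interleukin-6 signal to acute-phase genes, was at 161, 149, 133 and 144 CPM in male CRE- and 86.0, 79.1, 101 and 93.4 CPM in male LKO livers, without overlap, with an edgeR adjusted p of 0.331. In females it was at 276, 108, 109 and 124 CPM in CRE- and 190.5, 175, 148 and 187 CPM in LKO livers, with overlap. The median of the 9 was -0.42 in males and 0.18 in females.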

How the data were processed

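Poly-A selected liver RNA of 16 mice was sequenced as paired reads. STAR 2.7.1a was used by the authors for alignment to GRCm39, and the deposited values are raw read counts for each gene from featureCounts of Subread 2.0.6 on a RefSeq annotation. Per the file headers it ran with strand setting 2 and with -p alone, which counts the 2 reads of a pair individually, and without multi-mapped reads. The labels describe no step that keeps strand. The symbols are those of the table.

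Counts were filtered with filterByExpr (minimum count 10), normalized by TMM and fitted over all 16 libraries with 4 groups by the quasi-likelihood test of edgeR 4.0.16 in R 4.3.3, with Benjamini-Hochberg adjustment over the 16742 genes tested and a call at an adjusted p under 0.05. Comparisons were LKO against CRE- in each sex, their difference, their average, and female against male controls. Intervals are 95% and use the moderated spread. CPM used TMM library sizes, and log2 CPM a prior count of 2.

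The members and lists were chosen with earlier results of these data known. Some items of the lists are not reported here and were left out of the list counts. Named genes are the 9 members, the lists, Gcgr, genes with exons overlapping a member, and for each member the gene with the highest r among genes with a mean CPM of at least 1. Egfr, Cyp4a12b and the others named for likeness follow that rule. Alternatives were DESeq2 1.42.0, limma 3.58.1 (voom with sample weights), each sex alone, RLE and upper-quartile factors, no filter, 10 counts in every library, a threshold of 0.01, a replicate factor, and leaving out each library. The code was tested on simulated counts. Each library is 1 mouse. The 37 mitochondrial genes held 2.83% (female LKO replicate 4) to 6.19% (male CRE- replicate 3) of the counts, and the 10 most abundant genes 14.8% to 25.3%.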

Additional observations from a re-analysis of the deposited data

Results flagged for a closer look

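Within the groups of 4 livers, the highest or lowest value was examined for the 9 complement genes and Gcgr, 40 groups in all, and was singled out where its gap to the nearest value took up most of the range of the 4 (Dixon's ratio test at 0.05). Chance gives this in about 1 of 20 groups, so about 2 of 40, and 4 were found. C3 in female CRE- replicate 1 was at 15249 CPM, above the other 3 female controls at 9355 to 9747 CPM. C8a in the same liver was at 341 CPM, with the other 3 at 43.0 to 81.3 CPM. C8a in male CRE- replicate 3 was at 823 CPM, with the other 3 at 509.6 to 537 CPM. Gcgr in the same male liver was at 127 CPM, below the other 3 at 189.6 to 193 CPM. Why these livers differ was not tested.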

How the results depend on the processing

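Of 1157 pairs of a named fold change and an alternative, 983 kept direction and side of the threshold, 145 kept direction and lost a call, 15 gained one and 14 changed sign. None of those that changed sign belonged to a call. The 9 complement genes stayed at 0 calls in the female comparison and in the sex difference under every alternative run. In males the count of 0 became 1 with DESeq2, 1 with limma-voom and 1 with no filter, C9 each time, and 0 to 1 with 1 library left out. Averaged over the sexes the count of 1 became 0 at an adjusted p under 0.01 and 0 with the replicate block, and was 0 to 1 with 1 library left out. Between the control sexes the count of 1 became 2 with DESeq2, 3 with limma-voom, 2 with no filter, 0 with 10 counts in every library and 0 at 0.01, and was 0 to 2 with 1 library left out. The stricter threshold gives fewer calls by construction, and the cause of the other changes was not tested. At these depths the fewest counts of a member in a library were 468, for C6 in female LKO replicate 1. DESeq2 withheld the p of C8a in every comparison under its rule on outlying counts, so its counts leave C8a out. Cr2 and Ngp did not pass the filter of 10 counts in every library and have no value under it.

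Signs changed for small female effects. With limma-voom they became 0.074 for C2, 0.038 for Hc and -0.068 for Cfb, and with the replicate block 0.0082 for Hc. With 1 library left out the female log2 fold change was -0.15 to 0.036 for C2, -0.13 to 0.32 for C4b, -0.15 to 0.27 for Hc and -0.091 to 0.11 for Cfb, and that of C4b between the control sexes was -0.39 to 0.0052.

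Over all genes, the calls were 76 in males (335 with DESeq2, 148 with limma-voom, 22 at 0.01, 26 to 111 with 1 library left out) and 710 in females (1795, 1976, 51 and 87 to 1310, with 119 when the sex was fitted alone and 1244 with the replicate block). The sex difference had 0 (369 with DESeq2, 29 with limma-voom, 12 with no filter, 0 to 14 with 1 library left out). The average had 478 (1013, 857, 152 at 0.01, 299 to 598), and the control sexes 154 (498, 329, 54 at 0.01, 78 with 10 counts in every library, 68 to 213). Livers that share a replicate number had deviations correlated at 0.091 to 0.30 in males and 0.082 to 0.29 in females, over 0.1 in 3 of 4 pairs in each, and 5 of 8 livers in each sex correlated best with their own number, a hint from the data and not from the design. The labels give the number no meaning and 1 pair in each sex stayed under 0.1, so the fit has no replicate factor, and whether equal numbers share an origin cannot be told.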
